A study of Homo sapiens with 4 samples.

Results

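The genes described here are 10 human genes for sensors of foreign or own RNA and their adaptors: DDX58 (the older symbol of RIGI), IFIH1, DHX58, DDX60, DDX60L, MAVS, EIF2AK2, ZBP1, TLR3 and TICAM1. They were chosen by name, and all 10 had probes on the arrays, 16 probes in all of 34127. ALKBH3, a demethylase that reverses alkylation of DNA and RNA, was knocked down in PC3 cells, a line from a human prostate cancer, and RNA was measured on 4 single-colour Agilent arrays. The groups were control shRNA, which targets GFP, after selection for 48 h, ALKBH3 shRNA for 48 h, control shRNA for 96 h and ALKBH3 shRNA for 96 h, with 1 array each. All 4 carried a lentiviral infection and puromycin selection. The labels of these 4 arrays do not name the ALKBH3 shRNA or tell of a second one. On these arrays loss of ALKBH3 and other effects of the shRNA therefore cannot be told apart. By qRT-PCR with independent ALKBH3 shRNAs the study reports a rise of several interferon-stimulated genes, data that were not re-analysed here.

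RIG-I (from DDX58) and MDA5 (from IFIH1) bind double-stranded or otherwise unusual RNA in the cytosol and signal through MAVS on mitochondria, which leads to transcription of interferons. TLR3 senses double-stranded RNA inside endosomes and signals through TICAM1 (TRIF), while PKR (from EIF2AK2) stops translation when it binds such RNA and ZBP1 senses Z-form nucleic acids. Several of these genes are themselves interferon-stimulated, so that interferon raises the amount of its own sensors.

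The letters through which interferon-responsive promoters are commonly recognised are a pair of GAAA cores with a short spacer. Stretches near the start sites of these genes are shown. Where a gene had matches to these letters, its stretch was placed to hold them, so the stretches differ in place and length. Promoters of 8 of the 10 genes were in the RefSeq table (build GRCh38.p14), which gives 250 bases before and 50 bases after each start. DHX58 and ZBP1 were not in that table. The stretches below are printed 5′ to 3′ along the gene's strand, with capitals for matches to GAAANNGAAA or GAAANGAAA on either strand.
DDX58 (chr9:32526317-32526416, minus strand): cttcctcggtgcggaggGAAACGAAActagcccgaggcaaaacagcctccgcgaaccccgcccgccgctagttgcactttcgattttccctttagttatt
IFIH1 (chr2:162318685-162318854, minus strand): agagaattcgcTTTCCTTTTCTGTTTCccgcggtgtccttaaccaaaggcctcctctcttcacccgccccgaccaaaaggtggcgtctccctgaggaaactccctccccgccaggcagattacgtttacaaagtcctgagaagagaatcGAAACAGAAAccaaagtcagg
DDX60 (chr4:168318753-168318852, minus strand): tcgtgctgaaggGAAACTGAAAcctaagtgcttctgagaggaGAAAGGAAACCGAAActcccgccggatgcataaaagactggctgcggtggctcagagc
DDX60L (chr4:168480493-168480592, minus strand): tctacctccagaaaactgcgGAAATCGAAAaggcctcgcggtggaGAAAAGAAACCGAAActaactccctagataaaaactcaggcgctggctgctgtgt
EIF2AK2 (chr2:37156971-37157000, minus strand): gcggagtccaagggGAAAACGAAActgaga
TLR3 (chr4:186069136-186069165, plus strand): ttttttcaagctttacTTTCACTTTCgaga
MAVS (chr20:3846734-3846833, plus strand): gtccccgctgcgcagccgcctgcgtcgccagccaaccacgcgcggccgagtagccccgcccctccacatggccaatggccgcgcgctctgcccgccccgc
TICAM1 (chr19:4831713-4831812, minus strand): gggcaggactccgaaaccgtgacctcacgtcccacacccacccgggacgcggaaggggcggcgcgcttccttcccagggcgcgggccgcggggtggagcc

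GAAANNGAAA or its reverse was in the window of 5 genes, which were IFIH1, DDX60, DDX60L, EIF2AK2 and TLR3. Of 35116 promoters of the same length, 3.57% held it. DDX58 had only the form with a spacer of 1 base, GAAANGAAA, from 203 to 195 bases before its start, a form held by 3.12% of those promoters. IFIH1 held 3 matches with the longer spacer, of which 1 lay from 21 to 12 bases before the start and the other pair overlapped on the opposite strand. DDX60 and DDX60L each held a pair of such matches and 1 of the shorter form that overlapped the nearer one, and the single matches of EIF2AK2 and TLR3 spanned the start itself. MAVS and TICAM1 had no match to either form. The letters were chosen with the values of these genes known, and a match is a description of the sequence only.

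**Figure D1:**
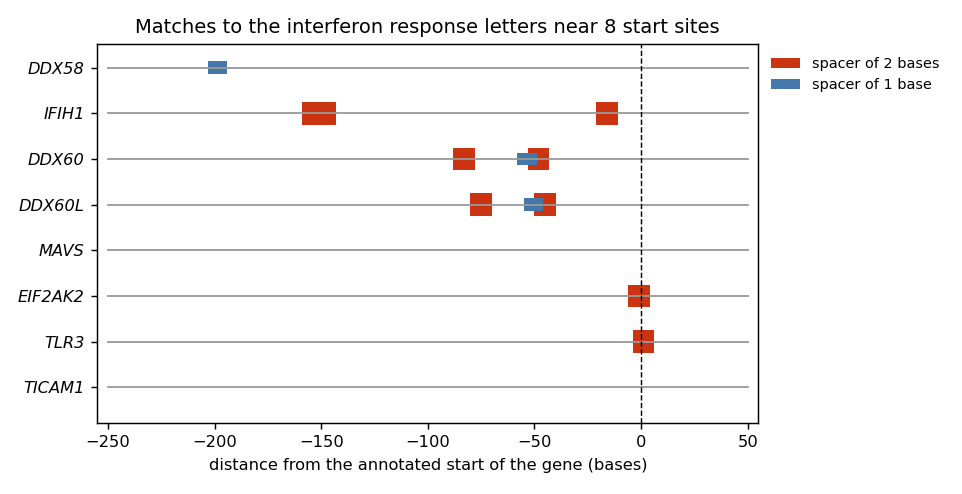
Positions of matches to GAAANNGAAA (tall bars, spacer of 2 bases) and GAAANGAAA (short bars, spacer of 1 base) from 250 bases before to 50 bases after the annotated start of 8 genes; the dashed line is the start. Matches lie within 100 bases of the start in DDX60, DDX60L, EIF2AK2 and TLR3, on both sides of that distance in IFIH1 and only farther away in DDX58, while MAVS and TICAM1 show none.

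The shRNA worked on the target: ALKBH3 signal was lower by 1.74 on the log2 scale at 48 h and by 1.51 at 96 h (limma, adjusted p = 0.253). Between 67.0% and 70.9% of probes on an array were well above background, and 14556 genes with such a probe were tested. Both arrays of a time point shared a slide, so time and slide cannot be told apart, while the shRNAs were compared within a slide. In the limma fit of 2 arrays against 2, where the time points are the only repeat, no gene passed an adjusted p of 0.05 (smallest value 0.0673), although 1213 were under that threshold before adjustment. With the time point as a block 649 passed it. All 6 markers listed for epithelial PC3 cells were well above background on the 4 arrays: KRT8, KRT18, KRT19, EPCAM, CD44 and VIM. Of these CD44 and VIM are not markers of epithelial cells alone. Of 8 leukocyte markers 6 were, with summed intensities of 539 to 614 against 5.65e+05 to 6.02e+05 for the epithelial list, and CLEC4C was above background on none. Of 8 fibroblast and endothelial markers 4 were well above background on all arrays, COL1A2 and PDGFRB on none, and the summed intensity moved from 1814 with control to 2648 with ALKBH3 shRNA at 48 h, and from 1410 to 2238 at 96 h. In that list LUM rose past the cutoffs, by 1.98 on the log2 scale, and COL1A1 differed by 0.71 and DCN by 0.65. LUM was well above background on no more than 3 of the 4 arrays and was dimmest with control at 96 h. It was thus not tested through both shRNAs, and it was higher with ALKBH3 shRNA. The endothelial markers went both ways, PECAM1 by -0.59, CDH5 by -0.20 and VWF by 0.29, the last also on no more than 3 arrays. The epithelial marker EPCAM differed by 0.98, below the fold cutoff. The rest of its list changed little, with 0.03 for KRT8, -0.07 for KRT18, -0.10 for CD44, -0.13 for VIM and -0.18 for KRT19. Of 5 prostate luminal markers 3 were well above background on all arrays, KLK3 on none, and the sum ran from 5801 to 8946. The part of these shifts in the results on the sensors was not tested. In such bulk RNA a smaller share of cells and less RNA per cell cannot be told apart.

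Most of the sensor genes were higher with ALKBH3 shRNA at both time points: DDX58, IFIH1, DDX60, DDX60L, EIF2AK2 and TLR3. Both ALKBH3 shRNA arrays lay above both control arrays in these 6 of the 9 genes tested, against 17.4% of all genes. IFIH1, DDX60L and TLR3 rose past the cutoffs of the study, a change of at least 2-fold with p, before adjustment, under 0.05. That is 3 of 9 genes beside 1.04% of all genes. None fell, where 0.234% of all genes did. The median log2 fold change of the 9 genes was 1.40, beside -0.0030 over all genes. At their brightest tested probe the adaptors MAVS and TICAM1 and the receptor DHX58 showed log2 fold changes of 0.22 or less in size. ZBP1 could not be tested.

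**Figure D2:**
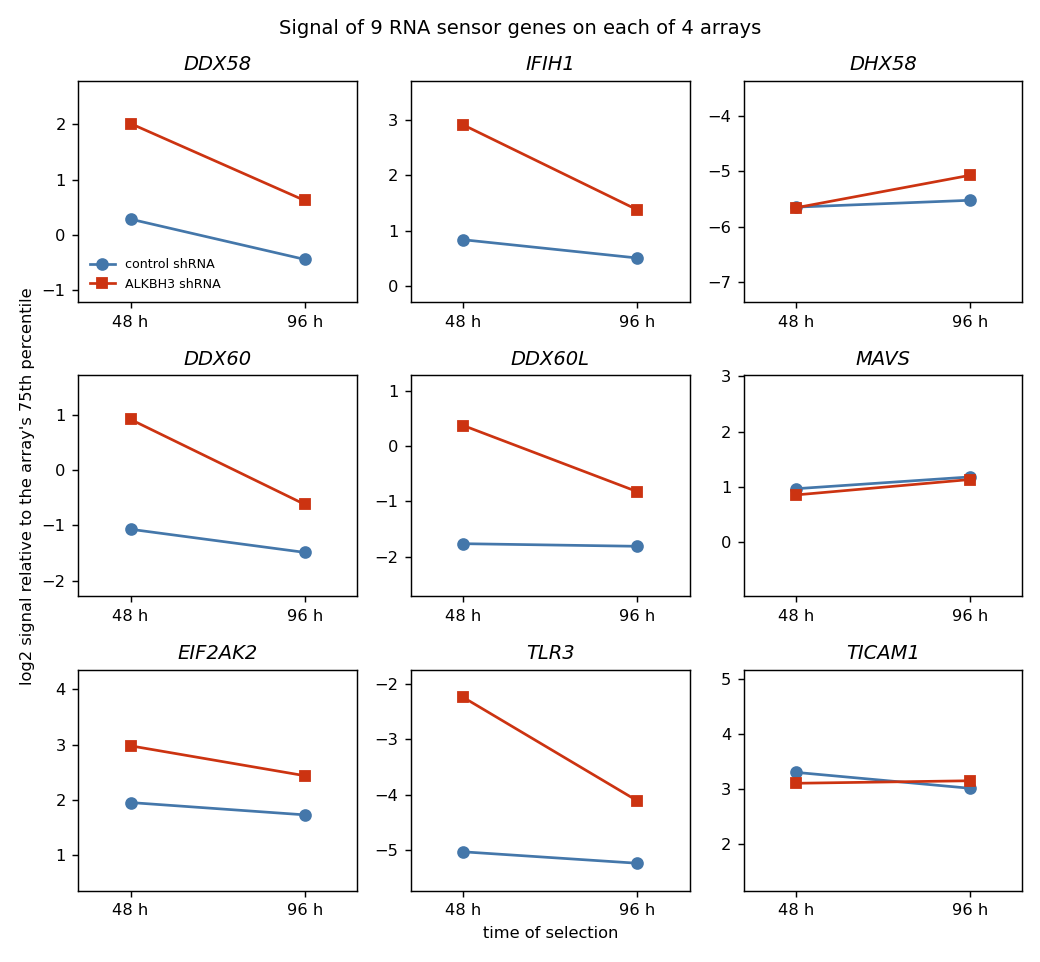
Log2 signal relative to the 75th percentile of each array (y axis, a span of 4 units in every panel) at 48 h and 96 h of selection (x axis) for 9 genes; each point is 1 array, circles control shRNA and squares ALKBH3 shRNA. The squares lie above both circles in DDX58, IFIH1, DDX60, DDX60L, EIF2AK2 and TLR3, most widely at 48 h, and the lines lie close together or cross in DHX58, MAVS and TICAM1.

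Levels are given below as log2 signal relative to the 75th percentile of the array, and each gene stands for its brightest tested probe. All 14 tested probes were well above background on all 4 arrays. Levels of different probes are not comparable with each other. The standard error of each log2 fold change rests on 2 arrays per shRNA taken at different times, so that it holds the change with time as well.

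DDX58 encodes RIG-I, the receptor for short double-stranded RNA with a 5′ triphosphate. Its level was 0.29 in control at 48 h and -0.44 at 96 h, and 2.02 and 0.62 with ALKBH3 shRNA. Both ALKBH3 shRNA values exceeded both control values, and the levels at 96 h were the lower ones with either shRNA. The log2 fold change was 1.40 ± 0.54 (SE, limma, adjusted p = 0.605), and it missed the cutoffs narrowly, by the unadjusted p alone, while it passed them under 10 of 15 other settings. With the time point as a block DDX58 passed them, with an adjusted p of 0.0398 (limma). A second probe gave 1.77 at 48 h and 0.91 at 96 h, beside 1.73 and 1.07 for the first, and passed the cutoffs in the fit over all tested probes (limma, adjusted p = 0.601).

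IFIH1 encodes MDA5, the receptor for long double-stranded RNA. Its level was 0.83 in control at 48 h and 0.50 at 96 h, and 2.91 and 1.38 with ALKBH3 shRNA. The groups did not overlap, and the array with ALKBH3 shRNA at 48 h stood highest by a wide margin. IFIH1 rose past the cutoffs, with a log2 difference of 2.08 after 48 h, 0.87 after 96 h and 1.47 ± 0.54 over both (SE, limma, adjusted p = 0.583). The call was near the threshold and was lost under 8 of 15 other settings, among them normexp background correction and the values as normalized by the authors.

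DHX58 encodes LGP2, the receptor of this family without signalling domains, which modulates the other two. Its level was low, -5.65 in control at 48 h and -5.52 at 96 h, and -5.66 and -5.07 with ALKBH3 shRNA, with spot intensities of 42.9 to 71.3 where the dimmest probe well above background on an array had 18.6 to 25.8. The arrays at 48 h were level and the ALKBH3 shRNA array at 96 h was the highest. The log2 fold change was 0.22 ± 0.23 (SE, limma, adjusted p = 0.908), which misses both cutoffs.

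DDX60 is a helicase described as an antiviral cofactor of RIG-I, and DDX60L is its close paralog. The level of DDX60 was -1.07 in control at 48 h and -1.49 at 96 h, and 0.92 and -0.62 with ALKBH3 shRNA. The level of DDX60L was -1.77 and -1.81 in control, and 0.37 and -0.83 with ALKBH3 shRNA. In both genes the groups did not overlap, and the control arrays of DDX60L differed by 0.05 between the times. The log2 fold change of DDX60 was 1.43 ± 0.54 (SE, limma, adjusted p = 0.600), which missed the cutoffs narrowly by the unadjusted p. It passed them under 9 of 15 other settings, among them normexp, the values of the authors and the time point as a block (limma adjusted p of 0.0734). DDX60L rose by 1.56 ± 0.41 (SE, limma, adjusted p = 0.457). Probe sequences were not used here, so how far a probe of 1 paralog reads the other was not tested.

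EIF2AK2 encodes PKR. Its level was 1.95 in control at 48 h and 1.73 at 96 h, and 2.98 and 2.44 with ALKBH3 shRNA. The groups did not overlap, with smaller steps than in DDX58 and IFIH1. The log2 fold change was 0.87 ± 0.22 (SE, limma, adjusted p = 0.433), which met the cutoff on unadjusted p and missed the 2-fold cutoff. With normexp background correction it was 0.68, and with the values of the authors 0.69, and neither met the cutoff on unadjusted p. With the time point as a block the adjusted p was 0.0392. A second probe with a dimmer signal gave the same fold change of 0.87 (limma, adjusted p = 0.569), from 0.999 at 48 h and 0.74 at 96 h.

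TLR3 is the endosomal receptor, and its probe was dim in control. Spot intensity in control was 65.6 at 48 h and 61.9 at 96 h, and with ALKBH3 shRNA it was 484 and 138, which is 6.94-fold and 2.19-fold after scaling. In log2 level these are -5.03 and -5.24 in control and -2.24 and -4.11 with ALKBH3 shRNA. The control arrays were alike and dim, and both ALKBH3 shRNA arrays stood above them. TLR3 rose by 1.96 ± 0.64 on the log2 scale (SE, limma, adjusted p = 0.547). The size depends on how the dim control signal is treated, since the log2 fold change at 48 h was 1.88 with normexp background correction instead of 2.80. Over both times it had the highest log2 fold change of the 9 genes, 1.96, but with normexp it had 1.33, below 1.46 for DDX58, 1.42 for DDX60 and 1.39 for DDX60L.

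MAVS, the adaptor of RIG-I and MDA5, had levels of 0.97 in control at 48 h and 1.18 at 96 h, and 0.85 and 1.13 with ALKBH3 shRNA. The log2 fold change was -0.08 ± 0.16 (SE, limma, adjusted p = 0.968), and its sign turned with normexp background correction (0.0095). Its 3 probes differed, as the other 2 gave -0.45 (limma, adjusted p = 0.601) and 0.07. The first of these was lower at both times, by 0.40 and 0.50. It met the cutoff on unadjusted p in the fit over all tested probes, without reaching a 2-fold change.

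TICAM1, the adaptor of TLR3, had levels of 3.30 in control at 48 h and 3.01 at 96 h, and 3.103 and 3.15 with ALKBH3 shRNA. The order of the shRNAs turned between the times, and the log2 fold change was -0.03 ± 0.15 (SE, limma, adjusted p = 0.990). A second probe gave 0.02.

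ZBP1 was near the limit of detection. One of its 2 probes was well above background only on the ALKBH3 shRNA array at 48 h, with intensities of 11.6, 30.9, 25.1 and 24.9 in the order control 48 h, ALKBH3 48 h, control 96 h and ALKBH3 96 h. The other probe was well above background only with control at 48 h, with 30.8, 20.0, 9.53 and 23.4. The probes disagreed and neither was tested.

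The change was larger at 48 h than at 96 h in all 6 genes that were higher at both times. Over all genes it was larger in size at 48 h in 7526 of 14556. At 48 h these 6 genes were at least 2-fold higher with ALKBH3 shRNA, where 1.88% of all genes were. EIF2AK2 was near that limit, with a log2 fold change at 48 h of 1.03, but 0.907 with normexp, 0.931 with normexp and quantile normalization, 0.991 with median centring and 0.936 with the values of the authors. At 96 h only DDX58 and TLR3 of the 9 genes were, where 1.46% of all genes were, and DDX60L stood at 1.98-fold. Which genes passed 2-fold at 96 h changed with the processing, as TLR3 had a log2 fold change of 0.78 with normexp and 0.80 with normexp and quantile normalization, and DDX60L had 1.01 with the percentile over detected probes. The median log2 fold change of the 9 genes was 1.73 at 48 h and 0.87 at 96 h. Each value compares 1 array with 1 array and has no test, while the median difference between shRNAs over all genes was 0.145 in size at 48 h and 0.140 at 96 h.

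In these 6 genes the level was lower at 96 h than at 48 h with either shRNA, and by more with ALKBH3 shRNA. Of all 14556 genes 7649 were lower at 96 h with control, and 7218 were with ALKBH3 shRNA. From 48 h to 96 h the level with ALKBH3 shRNA dropped by 1.39 in DDX58, and with control it dropped by 0.73. For IFIH1 the difference was -1.54 with ALKBH3 shRNA and -0.33 with control. For DDX60 it was -1.54 and -0.42, and for DDX60L -1.20 and -0.05. The control arrays of DDX60L differed less than its ALKBH3 shRNA arrays did. For TLR3 it was -1.87 and -0.21, and for EIF2AK2 it was -0.54 and -0.22, the smallest of the 6 with ALKBH3 shRNA. Between the times the median size of the difference over all genes was 0.187 with ALKBH3 shRNA and 0.176 with control. These differences also hold the change of slide.

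**Figure D3:**
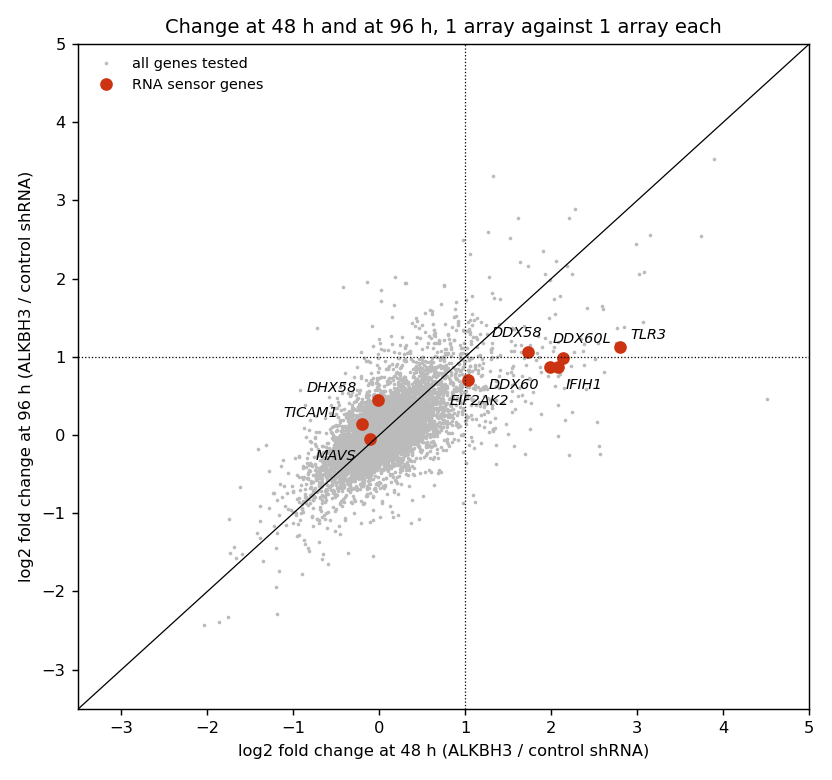
Log2 fold change of ALKBH3 over control shRNA at 48 h (x axis) against 96 h (y axis); small points are 14556 genes, large points the 9 RNA sensor genes, the line is equality and dotted lines mark 2-fold. DDX58, IFIH1, DDX60, DDX60L, EIF2AK2 and TLR3 lie right of 1 on the x axis and below the line, and MAVS, TICAM1 and DHX58 lie inside the cloud of all genes.

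With the time point as a block, 5 of the 9 genes passed the cutoffs of fold and unadjusted p, DDX58 and DDX60 in addition to those named above, beside 1.33% of all genes. By adjusted p below 0.05 in that fit, DDX58 and EIF2AK2 were higher, 2 of 9, beside 2.96% of all genes. Leaving out an array changed which genes passed. Such a fit sets 1 array against 2, so that time and slide enter the fold change. The log2 fold change of TLR3 was 1.03 without the ALKBH3 shRNA array of 48 h and 2.90 without that of 96 h. For DDX58 it was 0.70 and 2.09. The median log2 fold change of the 9 genes was 0.66 without the ALKBH3 shRNA array of 48 h and 2.09 without that of 96 h.

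**Figure D4:**
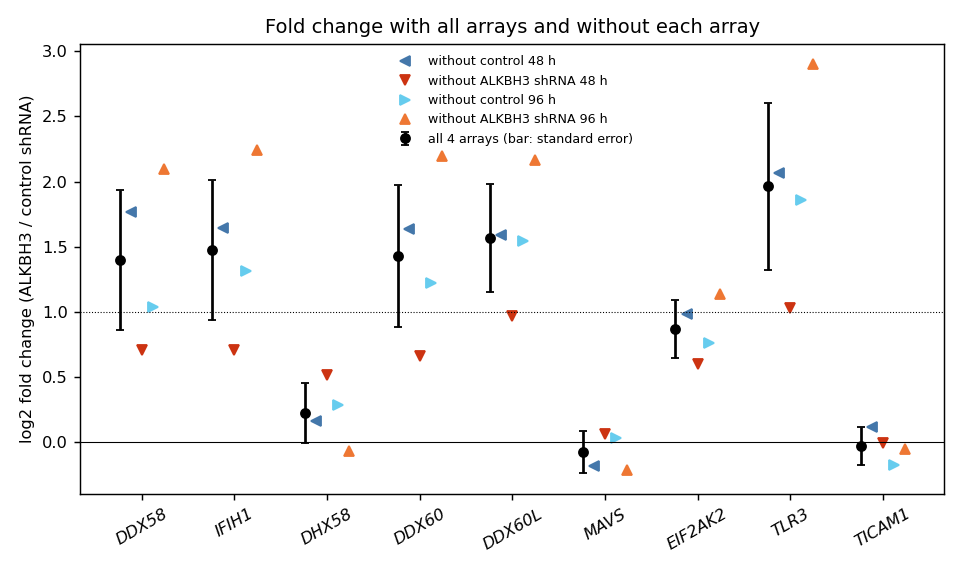
Log2 fold change of ALKBH3 over control shRNA (y axis) for 9 genes with all 4 arrays (circle, bar is the standard error from limma) and without each array in turn (triangles); the dotted line marks 2-fold. Leaving out the ALKBH3 shRNA array of 48 h gives the lowest value and leaving out that of 96 h the highest in DDX58, IFIH1, DDX60, DDX60L, EIF2AK2 and TLR3, and all values of these 6 genes stay above 0.

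The other genes of the pathway were read in the same fit. Of 126 listed genes 108 were tested, of which 2 rose past the cutoffs, beside 1.04% of all genes, and 0 fell, beside 0.234%, and the median log2 fold change was 0.04. Both that rose make 2-5A, the activator of RNase L: OAS1 rose by 1.42 ± 0.45 (SE, limma, adjusted p = 0.539) and OAS3 by 1.37 ± 0.34 (SE, limma, adjusted p = 0.424). The level of OAS1 was 0.24 in control at 48 h and -0.16 at 96 h, and 2.09 and 0.83 with ALKBH3 shRNA, with no overlap. They belong to the 19 tested genes of other RNA sensors and double-stranded RNA binding proteins, whose median was -0.0019. In that list ADAR, the editing enzyme that marks own double-stranded RNA, differed by 0.50 on the log2 scale (limma, adjusted p = 0.675). OASL, chosen after its values were seen, had 1.96 (limma, adjusted p = 0.609) and passed the cutoffs with the time point as a block. The calls among the 108 genes also moved when an array was left out, where time and slide enter the fold change.

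The same shares of all genes, 1.04% and 0.234%, stand beside the counts of the shorter lists, and a count of 0 there does not set a list apart. None of the 33 ubiquitin ligases and other regulators of RIG-I, MDA5 and MAVS passed, and the smallest p was that of RNF125, a ligase that lowers RIG-I, which differed by -0.54 on the log2 scale (limma, adjusted p = 0.639). Among 27 signalling proteins downstream of MAVS and TICAM1 none passed either. Their smallest p was that of NFKBIA, the inhibitor of NF-kB, with 0.65 ± 0.12 (SE, limma, adjusted p = 0.348), below a 2-fold change. Of 14 tested partners of TLR3, ZBP1 and PKR none passed, and the smallest p was that of SARM1, a TIR domain protein, with -0.30 (limma, adjusted p = 0.704).

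The products and the receivers of the pathway were read in the same way. Of 20 listed interferon genes 16 had probes, 6 were tested and none passed. IFNB1, the interferon made first in most cells, was well above background only with ALKBH3 shRNA at 48 h, where its intensity was 52.4 against 10.9 with control, and 18.8 against 12.8 at 96 h, so it was not tested. IFNL1, an epithelial interferon, had intensities of 27.9 and 63.4 at 48 h and 27.8 and 42.9 at 96 h in the order control, ALKBH3 shRNA, and a log2 fold change of 0.85 ± 0.24 (SE, limma, adjusted p = 0.486). Its probe was well above background on 3 of the 4 arrays, not with control at 96 h, so it was tested through the ALKBH3 shRNA arrays, where it was higher. Of 9 interferon receptor and signalling genes none passed. The smallest p among them was that of IFNLR1, a receptor chain for IFNL1, with a difference of 0.71 on the log2 scale (limma, adjusted p = 0.664).

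**Figure D5:**
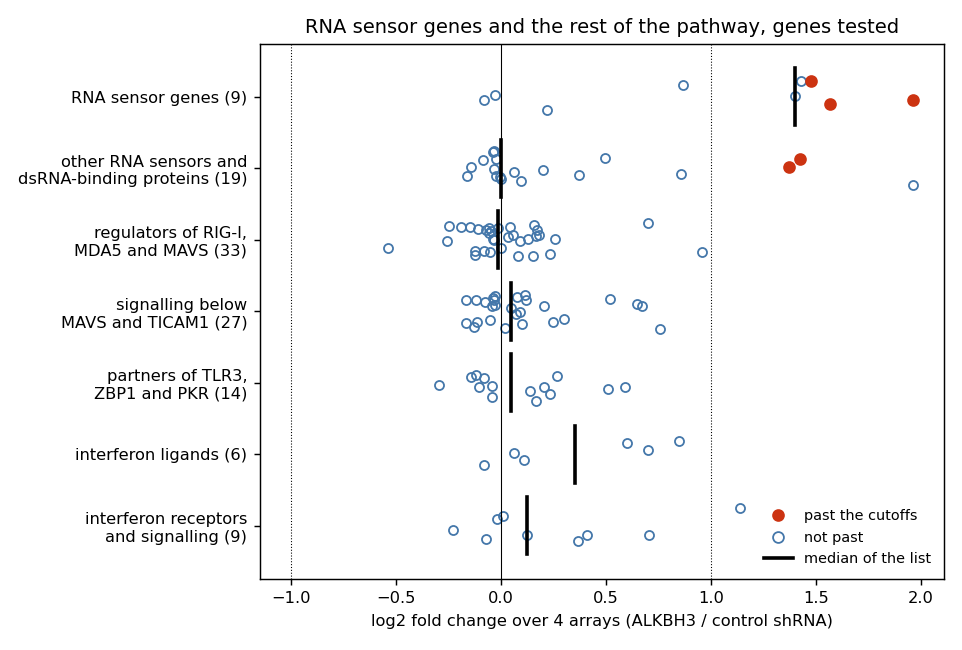
Log2 fold change of ALKBH3 over control shRNA across the 4 arrays (x axis) for the 9 RNA sensor genes and for 6 lists of other pathway genes, with the number tested in brackets; filled points passed both cutoffs, and vertical bars are medians. The bar of the sensor genes stands at 1.40, and of the other lists only the RNA sensors and double-stranded RNA binding proteins hold filled points, OAS1 and OAS3.

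The pattern of DDX58 over the 4 arrays was closest to those of 5 genes by the root mean square difference of centred log2 values, out of 14555 other genes. These were MX1 (0.0409), IL4I1 (0.0805), THEMIS2 (0.0825), IFITM1 (0.0876) and IFIT1 (0.0920). MX1, IFITM1 and IFIT1 encode antiviral proteins. Among the sensors DDX60 ranked 8, IFIH1 14, DDX60L 53, TLR3 134 and EIF2AK2 211 by the same measure, while TICAM1 ranked 6245, DHX58 10533 and MAVS 12126. The measure rests on 4 arrays and is a description.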

How the data were processed

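RNA of 4 samples of PC3 cells was measured on single-colour Agilent arrays. The authors deposited spot intensities from Agilent Feature Extraction (version 10.7.3.1 per the file headers), background-subtracted on each array and not normalized between arrays, and a table of log2 values that the authors had normalized between arrays with limma, used as an alternative. From the intensities, flagged spots (180 to 379 an array) were removed, and log2 values were centred on the 75th percentile of the array (2150 to 2394) and averaged per probe. No spot was saturated. A probe was tested where the software called it well above background with either shRNA at both times. The files held no gene names, so probes were named by accession through the RefSeq table of GRCh38.p14 (24910 of 34127 probes). A gene was read from its brightest tested probe. lmFit and eBayes of limma 3.58.1 (R 4.3.3) were run without a covariate over 14556 genes, with Benjamini-Hochberg adjustment, and checked on simulated data. The simulated noise was independent between arrays, so the check does not cover effects shared within a time point. Figures used Python and matplotlib. The number of arrays limits the precision, and nothing states separate infections, so p-values measure only the spread between these samples. The labels pair arrays by time point, and deviations from group means correlated over genes within a time point (r = 0.703), so the time point served as a block in an alternative. Other alternatives were normexp (offset 50), quantile normalization, median centring, other filters and probe rules, an unpaired Student test and leaving out each array. The text names all members, pathway genes past the cutoffs or with the smallest p of a list, IFNB1, IFNL1, ADAR, OAS1 and the 5 genes most like DDX58, with OASL as an exception; some listed genes are not reported here. Members, lists and motif letters were chosen with earlier results of these data known.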

Additional observations from a re-analysis of the deposited data

Results flagged for a closer look

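In 2 of the 9 genes tested the log2 difference between the shRNAs had opposite signs at 48 h and 96 h. Of all 14556 genes 5033 were positive and 5184 negative at both times, so mixed signs were common and do not set these genes apart. For DHX58 the log2 difference was -0.0108 after 48 h, where the arrays were level, and 0.453 after 96 h. For TICAM1 it was -0.197 after 48 h but 0.137 after 96 h. Each value compares 1 array with 1 array, so the difference between time points was not tested.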

How the results depend on the processing

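The number of RNA sensor genes past the cutoffs, 3 with all arrays, was 5 with median centring, with the 75th percentile taken over probes detected on every array, with only such probes, with probes in place of genes, and with the time point as a replicate block. It was 0 with an unpaired Student test and ran from 1 to 6 when each array was left out, with 1 both without the ALKBH3 shRNA array of 48 h and without the control array of 96 h. None fell past the cutoffs under any of these settings. The median log2 fold change of the 9 genes ran from 1.32 to 1.42 under the other settings and from 0.66 to 2.09 when each array was left out. DDX58, IFIH1, DDX60, DDX60L, EIF2AK2 and TLR3 kept a positive log2 fold change under all settings run.

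The count of pathway genes that rose, 2 with all arrays, was 5 with probes in place of genes, 4 with the replicate block, 0 with the Student test and 0 to 10 when each array was left out. Over all genes the 151 that rose became 61 with normexp, 64 with normexp and quantile normalization, 88 with the values of the authors, 276 without a filter, 100 with probes detected on every array, 45 with the Student test and 146 to 321 when each array was left out. The 34 that fell became 22 and 21 with the normexp settings, 56 without a filter, 15 with the Student test and 30 to 92 when each array was left out.

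Small values changed sign. DHX58 ran from -0.073 without the ALKBH3 shRNA array of 96 h to 0.52 without that of 48 h, and had 0.0037 at 48 h with the percentile over detected probes. MAVS had 0.0095 with normexp, 0.013 with normexp and quantile normalization and 0.013 with the values of the authors, where it had 0.15, 0.15 and 0.15 at 96 h, and ran from -0.22 without the ALKBH3 shRNA array of 96 h to 0.060 without that of 48 h, with 0.027 without the control array of 96 h. TICAM1 ran from -0.17 without the control array of 96 h to 0.11 without that of 48 h. The cause was not tested. With 1 array per shRNA and time point, signal near background limits DHX58, TLR3, ZBP1, IFNB1, IFNL1 and LUM.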
